A study of Mus musculus with 16 samples.

Results

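The cell cycle genes described here were chosen by symbol from a list of 50 genes that carry the cycle from G1 to the end of mitosis and that include the mRNAs with which CPEB proteins were first studied. Of these, 48 had a 3′-UTR region in the deposited tables, out of 14925 genes in all, and Bub1 and Wee1 were not analysed here. Each gene was represented by its region with the most reads over all libraries. Reads came from an RNA-immunoprecipitation (RIP-seq) experiment in mouse bone marrow-derived macrophages (BMDMs), in which RNA recovered with an anti-CPEB4 antibody was compared with the lysate RNA (Input). BMDMs were grown for 7 days from the femurs of adult mice of a C57BL/6J 129 background, in medium conditioned by L cells. One culture, number 76, was wildtype (WT), and the other, number 73, came from mice that lacked Cpeb4 in the whole body (KO). Each was left untreated or was given lipopolysaccharide (LPS), a component of the bacterial outer membrane, at 10 ng/ml for 9 h. The 16 samples were 8 libraries run on lanes 7 and 8, and the lanes were summed, which left a single library for each genotype, treatment and assay and no replicates. A test on the reads of 2 libraries therefore compared those libraries and not the conditions, and all intervals below cover counting error only.

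CPEB proteins bind the cytoplasmic polyadenylation element (CPE), a short U-rich motif in 3′-UTRs, close to the hexamer that directs polyadenylation. In maturing oocytes they hold maternal mRNAs silent and then lengthen their poly(A) tails, and mRNAs of B-type cyclins are the classic targets. CPEB4 is the family member that was immunoprecipitated here. In the cycle, D-type cyclins with CDK4 and CDK6 phosphorylate RB and release E2F factors, A- and B-type cyclins with CDK1 drive mitosis, and CDK inhibitors hold the kinases back. Macrophages grown with colony-stimulating factor can divide, and LPS is known to stop their growth.

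The canonical CPE, written here as TTTTAT or TTTTAAT in the DNA letters of the transcribed strand, was present in the regions of 37 of the 48 genes (77.1%), against 57.4% of the regions of all 14925 genes, each represented in the same way. A polyadenylation hexamer, AATAAA or ATTAAA, was present in 44 of the 48 (91.7%), against 87.7% of all. Only the given strand was searched, and TTTTAAT and AATAAA can overlap. Non-canonical CPEs, taken from the deposited motif counts and not searched here, were present in 15 of the 48 regions (31.25%), against 41.0% of all. The regions of the 48 genes had a median length of 907 bases, from 62 to 4556. The sequences of 8 genes on which the results below turn are shown with the canonical CPE that lies nearest to a hexamer, as 30 bases of the mouse genome build GRCm38 (mm10), 5′ to 3′ along the transcript. Capitals mark each whole canonical CPE and each whole hexamer in the window.
Ccnd1: tgtacttttttTTTTAATtgtgatctattt
Cdk6: tcttctgtttatTTTTATttttaacattac
E2f3: acaaacaaaagcTTTTATgatggattttgt
Cdkn1b: aagagatttttTTTTAATctagacaatata
Ccna2: tatttggataaTTTTAATtggttaacattg
Ccnb1: ctcatttgctgTTTTAATttatacatctga
Mad2l1: ctgtAATAAAgaactcttaTTTTAATgttt
Kif11: agaaacgttaTTTTAATAAAaataatgcat
All of these windows lie within the Ensembl 3′-UTR regions that the authors counted. Ccnd1 (chr7:144930666-144930695, minus strand), encoding cyclin D1, had 3 canonical CPEs in its region, and the one shown began 733 bases from the nearest hexamer. Cdk6 (chr5:3522841-3522870, plus strand) had 1, which began 1421 bases away. In E2f3 (chr13:29906693-29906722, minus strand) there were 4 CPEs and in Cdkn1b (chr6:134925290-134925319, plus strand) 8. Ccna2 (chr3:36566026-36566055, minus strand) also had 8, and Ccnb1 (chr13:100778775-100778804, minus strand) had 4. The single CPE of Mad2l1 (chr6:66540961-66540990, plus strand) began 15 bases from a hexamer, and in Kif11 (chr19:37421714-37421743, plus strand) the CPE and the hexamer overlapped. A match describes these letters and is not a measured binding site.

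The libraries held from 467696 (KO RIP, untreated) to 2492300 (WT RIP, LPS) reads over 3′-UTRs with a gene symbol, and the 48 genes took from 1203 to 6648 of them. The 3′-UTR reads made up 27.3% and 31.8% of the library totals implied by the deposited RPKM in the KO RIPs, against 46.4% to 70.1% in the other libraries. Levels are given as counts-per-million of the 3′-UTR reads with a symbol (CPM). When library totals were used instead, log2 ratios of the WT RIP over the KO RIP moved up by 0.84 in untreated cells and by 1.14 after LPS. Cpeb4 itself had 121 and 69 Input reads in WT and KO untreated cells and 258 and 79 after LPS. Whether the deletion includes the 3′-UTR is not given in the sources used here, so these reads do not check the genotype. Macrophage markers, all 9 of which had reads, summed to 2542 to 3577 CPM in the Inputs, and T cell markers to at most 9.05. The 6 genes of a list of LPS response genes summed to 55.8 and 76.4 CPM in the untreated Inputs and to 2056 and 2100 after LPS.

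A gene was called between 2 libraries where a chi-square test gave a Benjamini-Yekutieli adjusted p under 0.02 with a log2 ratio over 0.5 in size, or an unadjusted p under 0.02 with a log2 ratio over 1.2 in size. Genes with at least 10 reads in the pair were tested, and ratios were taken after adding 1 read to each library. Brackets give 95% intervals, which are exact for a ratio of 2 libraries and normal approximations for a ratio of such ratios.

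Between the CPEB4 RIPs of untreated cells, 1 of 40 cell cycle genes tested was higher in WT (2.5%) and 7 were lower (17.5%), where 6.70% and 9.33% of all 8064 genes tested were called higher and lower. The one higher gene was Ccnd1. It had 1234 reads in the WT RIP and 228 in the KO RIP, or 741 and 488 CPM, a log2 ratio of 0.60 [0.40, 0.81] with an adjusted p of 2.2e-06. The lower genes were Mcm5 and Mcm6, subunits of the replicative helicase, Cdk1, Cdc25b, Cenpf, Birc5 and Mki67. All 7 came from the replication and mitotic groups. Of the 40 genes tested, these groups gave 8 (replication), 5 (mitotic entry), 5 (kinases and checkpoint) and 8 (spindle, kinetochore and chromosome). Of the 7 lower genes, 2, Mcm5 and Mki67, had fewer than 10 reads in each RIP.

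Cdc25b, a phosphatase that activates CDK1, had 77 WT and 52 KO reads, or 46.2 and 111 CPM, a log2 ratio of -1.28 [-1.79, -0.73]. Cdk1, the kinase that drives entry into mitosis, had 26 and 22 reads (log2 ratio -1.60 [-2.47, -0.70]). Cenpf, a kinetochore protein, had 14 and 32 reads, and its log2 ratio of -2.97 was the lowest among the cell cycle genes. In the KO RIP, from cells without the antibody's target, these genes held larger shares of the reads than in the WT RIP. The other classic targets could not be told apart between genotypes by this rule. Ccnb1, encoding cyclin B1, had 19 WT and 10 KO RIP reads (log2 ratio -0.97 [-2.08, 0.36]), and Ccnb2 had 7 and 1, too few to test. Aurka, encoding a kinase of the spindle poles, had 9 and 3 reads, and Fbxo5, encoding the anaphase-promoting complex inhibitor EMI1, had 12 and 3. The split of 1 higher and 7 lower genes became 4 and 6 under TMM scaling, 3 and 6 under median-of-ratios scaling and 14 and 1 under library totals.

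After LPS, 3 of 25 genes tested were higher in the WT RIP (12%) and 2 were lower (8%), against 10.6% and 14.9% of all 8310 genes tested. All 3 higher genes came from the G1 group, which made up 11 of the 25 genes tested. They were Ccnd1, Cdk6, which encodes a partner kinase of D-type cyclins, and E2f3, a transcription factor released by RB. Ccnd1 had 538 WT and 132 KO reads, a log2 ratio of 0.50 [0.23, 0.80] with an adjusted p of 0.014. It passed the threshold on size narrowly and lost the call when genes with fewer than 10 reads were tested too. Cdk6 had 266 and 37 reads, or 107 and 42.5 CPM, a log2 ratio of 1.30 [0.83, 1.87] with an adjusted p of 7.6e-06. E2f3 had 371 and 73 reads, or 149 and 83.8 CPM, a log2 ratio of 0.81 [0.46, 1.21]. In untreated cells E2f3 had 234 and 34 reads and a similar log2 ratio of 0.91 [0.43, 1.51], which missed the call with an adjusted p of 0.027. The untreated values of Cdk6 differed from those after LPS, with 424 WT and 118 KO reads and a log2 ratio of 0.00 [-0.28, 0.32].

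Ccnd2, encoding cyclin D2, was lower in the WT RIP, with 1338 reads against 865 in KO, or 537 and 993 CPM. Its log2 ratio of -0.89 [-1.01, -0.76] turned to 0.25 with library totals. Cdc25b was lower again, on 2 and 8 reads (log2 ratio -3.10 [-6.79, -1.19]), and was the one gene called in the KO direction under both treatments, though not with library totals. With TMM scaling the split of 3 higher and 2 lower genes was 5 and 2, and with library totals it was 14 and 0. With edgeR's exact test at a preset coefficient of variation of 0.4, which allows for variation between replicates, none of the genes was called after LPS and 1 (lower) in untreated cells.

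**Figure D1:**
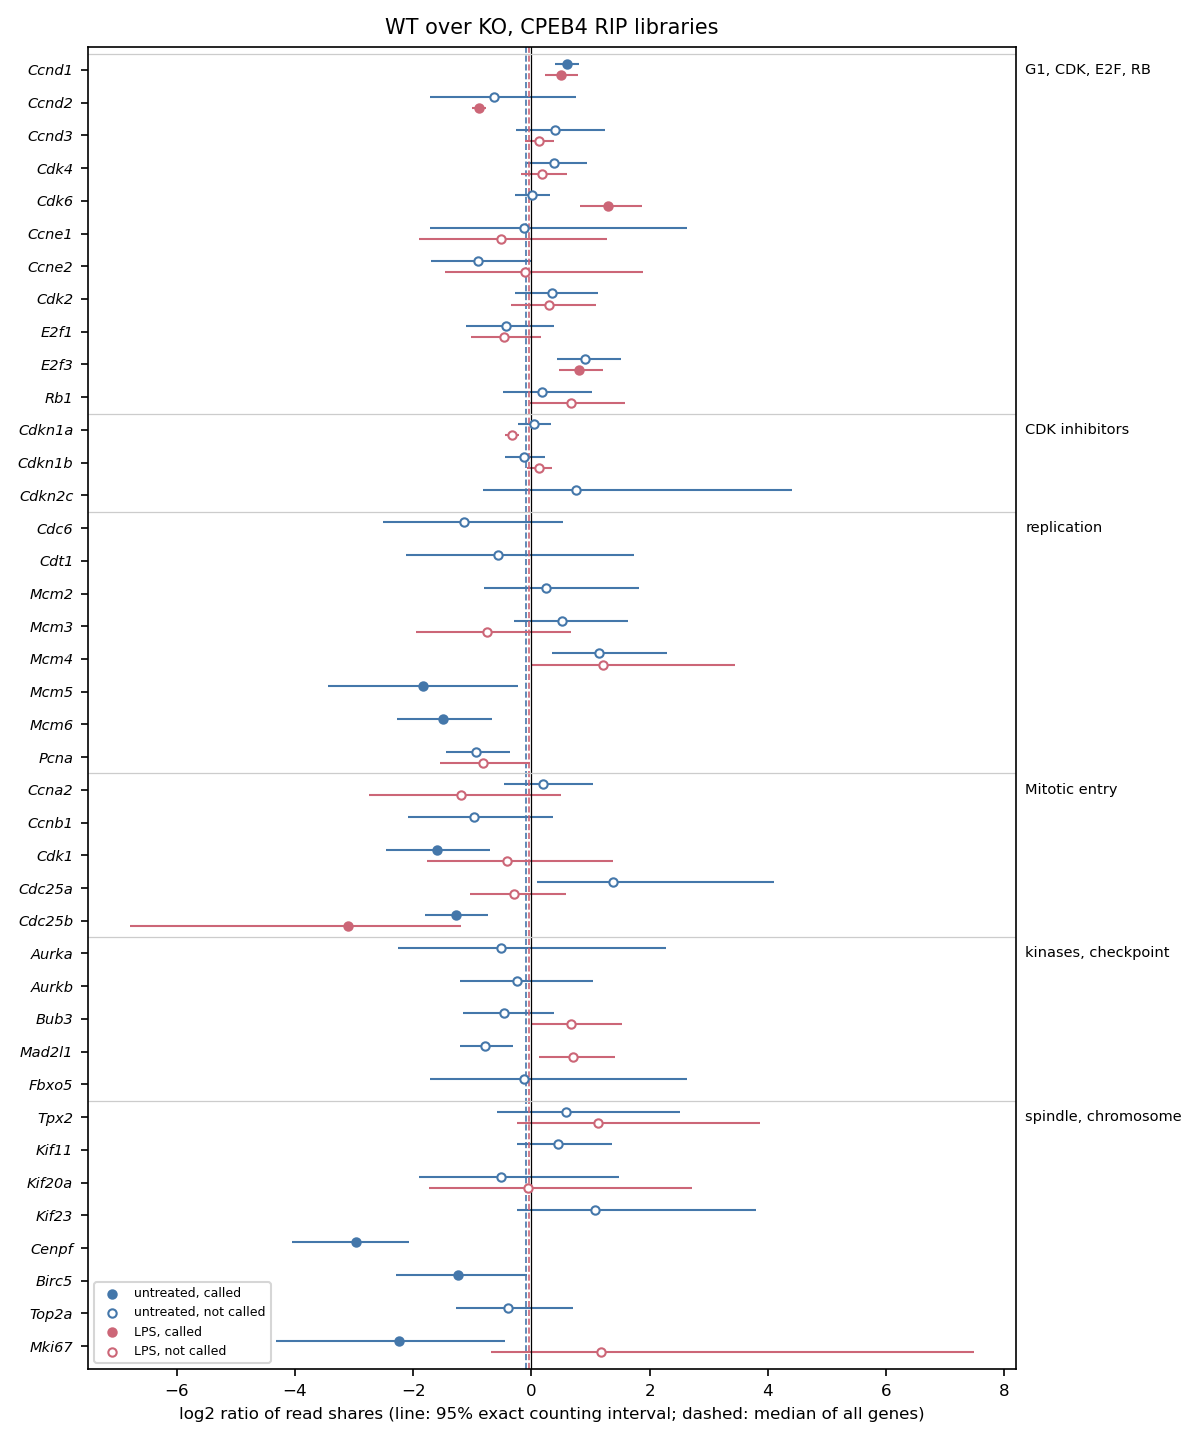
Log2 ratio of 3′-UTR read shares, WT over KO CPEB4 RIP (x axis), for each cell cycle gene tested (y axis, grouped by role), untreated in blue and LPS in red. Filled points were called, lines are 95% exact counting intervals and dashed lines mark the median of all genes (-0.10 untreated, -0.04 LPS). Ccnd1, E2f3, Mcm4 and Tpx2 are among the genes to the right under both treatments, Mcm4 and Tpx2 without a call, and Cdc25b lies to the left.

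The difference between the treatments was taken directly for the 13 genes with at least 10 reads in all 4 RIPs. The ratio of the WT to the KO RIP was higher after LPS for 3 of them and lower for 0, where 5.76% and 5.22% of 4460 genes passed the same limits, a change over 0.5 with an interval that excludes 0. Cdk6 changed by 1.29 [0.72, 1.86] on the log2 scale. Mad2l1, a spindle checkpoint protein, changed by 1.48 [0.75, 2.22], from 132 WT and 63 KO reads in untreated cells to 125 and 26 after LPS. Bub3, which acts in the same checkpoint, changed by 1.13 [0.13, 2.12], from 56 and 21 reads to 90 and 19. Neither Mad2l1 nor Bub3 was called between the RIPs under either treatment. Both held a larger share of the KO RIP before LPS and of the WT RIP after it. For E2f3 the change was -0.10 [-0.73, 0.53] and for Ccnd1 -0.10 [-0.44, 0.25].

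In the Inputs, which measure RNA levels, most replication and mitotic mRNAs tested were lower after LPS in both genotypes, and a few G1 regulators were higher. In WT, 3 of 31 genes tested rose (9.68%) and 15 fell (48.4%), against 13.7% and 16.5% of all 8163 genes. In KO, 3 of 34 rose (8.82%) and 24 fell (70.6%), against 14.4% and 20.0% of 8250. The median log2 ratio of the cell cycle genes was -0.86 in WT and -1.82 in KO, and that of all genes -0.08 and -0.18. The genes tested differed between WT and KO, so these values do not compare the genotypes gene by gene. For that, 16 cell cycle genes had at least 10 reads in each of the 4 Inputs. Their median difference of the LPS change, WT minus KO, was 0.18 on the log2 scale, against 0.04 over 5468 genes. In bulk samples, fewer dividing cells and less RNA per cell cannot be told apart. Of the 94 further cell cycle genes on a separate list, 90 had a region. Of these, 46 were tested in WT, where 0 rose and 21 fell, and 54 in KO, where 3 rose and 29 fell.

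The genes that rose were the same in both genotypes, namely Ccnd2, Ccnd3 and Cdkn1a. Ccnd2 had 13 WT and 25 KO reads in untreated cells and 1494 and 1325 after LPS, which is 14.0 and 18.9 against 787 and 882 CPM. Its Input level was 52.3-fold higher after LPS in WT and 45.0-fold in KO, the largest rise among the cell cycle genes. Ccnd3, encoding cyclin D3, went from 89 and 139 reads to 665 and 658, or 3.62-fold in WT and 4.15-fold in KO. Cdkn1a, encoding the CDK inhibitor p21, went from 443 and 574 reads to 2045 and 1498, or 2.26-fold and 2.30-fold. It had the highest level per length among the cell cycle genes in untreated WT cells, 359 CPM per kilobase, against 242 for Cdk4 and 217 for Ccnd1.

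The third D-type cyclin moved the other way. Ccnd1 fell from 540 WT and 750 KO reads to 229 and 314, a log2 ratio of -2.26 [-2.50, -2.04] in WT and -1.43 [-1.63, -1.24] in KO. Cdk6 fell from 275 and 348 reads to 222 and 88, a log2 ratio of -1.34 [-1.60, -1.08] and -2.15 [-2.52, -1.82]. The partner kinase Cdk4 did not pass the test, with 202 and 285 reads in untreated cells and 451 and 406 after LPS (log2 ratio 0.12 [-0.11, 0.38] in WT and 0.33 [0.11, 0.55] in KO). Rb1, the RB pocket protein that D-type cyclin kinases phosphorylate, had 16 and 43 reads before and 23 and 15 after LPS. It fell in KO (log2 ratio -1.64 [-2.65, -0.82]), and the WT value was -0.53 [-1.49, 0.51]. The difference of these changes, WT minus KO, was 1.11 [-0.11, 2.33], an interval that includes 0. E2f3 had 63 and 82 reads, then 148 and 113, and Cdkn1b, encoding the CDK inhibitor p27, had 32 and 61, then 99 and 73; neither passed the test.

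**Figure D2:**
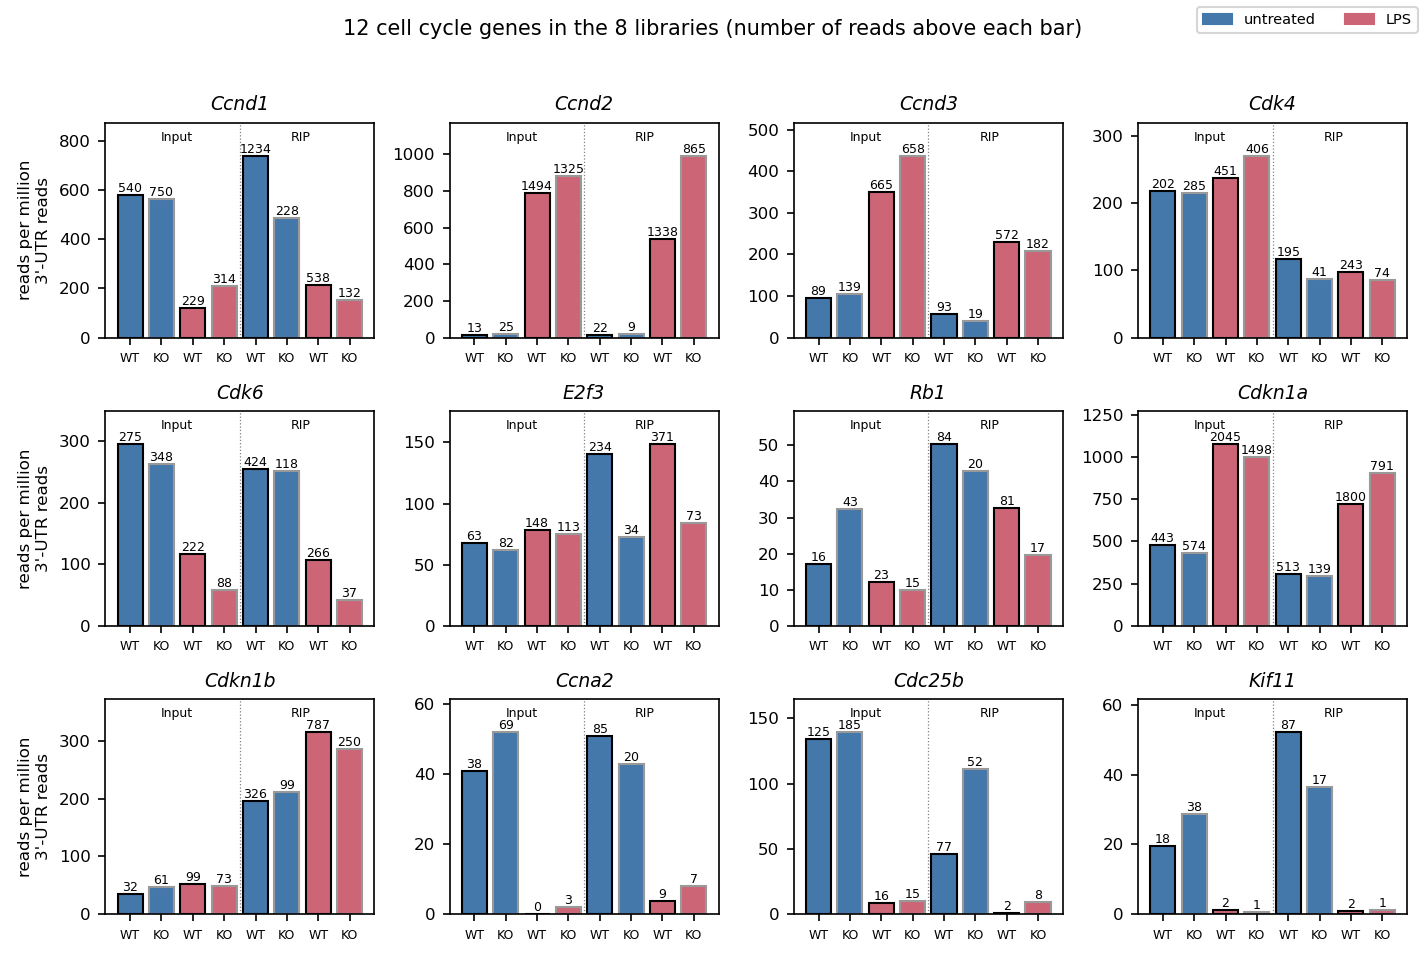
CPM (y axis, linear from 0) of 12 cell cycle genes in the 8 libraries, with the number of reads above each bar; Input on the left and RIP on the right of each panel, untreated in blue and LPS in red. Each bar is 1 library; Ccnd2 went from 13 and 25 Input reads to 1494 and 1325, and Ccna2, Cdc25b and Kif11 are near the axis after LPS.

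Among the replication genes, 5 of 7 tested fell in WT and 7 of 7 in KO, and their summed level was 3.54-fold lower after LPS in WT and 4.95-fold in KO. The MCM helicase genes Mcm2, Mcm3, Mcm4 and Mcm6 and the licensing factor Cdt1 fell in both genotypes. Pcna, the polymerase clamp, fell in KO, from 35 to 12 reads, and had 8 and 16 reads in WT. In the 3 mitotic groups together, with 25 genes, the summed level was 3.48-fold lower in WT and 4.95-fold in KO.

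Ccna2, encoding cyclin A2, fell from 38 reads to 0 in WT, at least 25.9-fold counting 3 reads for the 0, and from 69 to 3 in KO (log2 ratio -4.31 [-7.02, -3.10]). Cdc25b fell from 125 to 16 reads in WT and from 185 to 15 in KO, log2 ratios of -3.92 [-4.85, -3.24] and -3.72 [-4.67, -3.05]. Kif11, a motor that separates the spindle poles, fell from 18 to 2 reads and from 38 to 1 (log2 ratio -3.69 [-7.35, -2.14] in WT and -4.47 [-10.77, -2.86] in KO). Ccna2 and Kif11 had at most 3 Input reads after LPS, while Cdc25b kept 8.43 CPM in WT and 9.98 in KO. Aurka fell from 18 to 5 and from 27 to 7 reads, and Top2a, which untangles chromosomes, from 16 to 3 and from 24 to 2. Cdk1 fell from 10 to 6 and from 21 to 4 reads.

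Ccnb1 had 5 and 14 reads in untreated WT and KO cells and 0 in both Inputs after LPS; the KO change of at least 5.29-fold was called, and the WT pair was under 10 reads. Few Input reads fell on the regions of Ccnb2, Fbxo5 and Mki67. A copy elsewhere in the genome matched 100% of the Mki67 region, so its reads do not give its level. Ccnb2 had 0 and 1 reads before and 0 and 1 after LPS, Fbxo5 1 and 1 before and 0 and 1 after, and Mki67, the proliferation marker, 0 and 3 before and 1 and 2 after. A count of 0 in the WT Inputs allows up to 3.23 CPM untreated and 1.58 after LPS. Cdc25c and Ttk had at most 2 reads in any library, Cdc20 at most 2 and Mcm7 at most 3. Among the sparse genes, Cdkn2c had 8 and 8 reads before and 0 and 1 after LPS, Cdc6 6 and 7 before and none after, and Plk1 4 and 12 before and none after. Cenpf likewise had 7 and 12 reads before and none after, Birc5 went from 23 and 38 to 3 and 2, and Aurkb from 8 and 18 to 2 and 2. Kif23, Bub1b and Cenpe had at most 3 reads in any Input. Not all mitotic genes fell: Cdc25a had 21 and 15 reads before and 59 and 21 after LPS, and Bub3 had 48 and 70, then 91 and 55, with no call in either genotype.

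With edgeR's exact test at the preset variation, 1 gene rose and 8 fell in WT and 2 rose and 14 fell in KO. Requiring 50 reads in the pair left 5 lower genes in WT and 10 in KO.

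**Figure D3:**
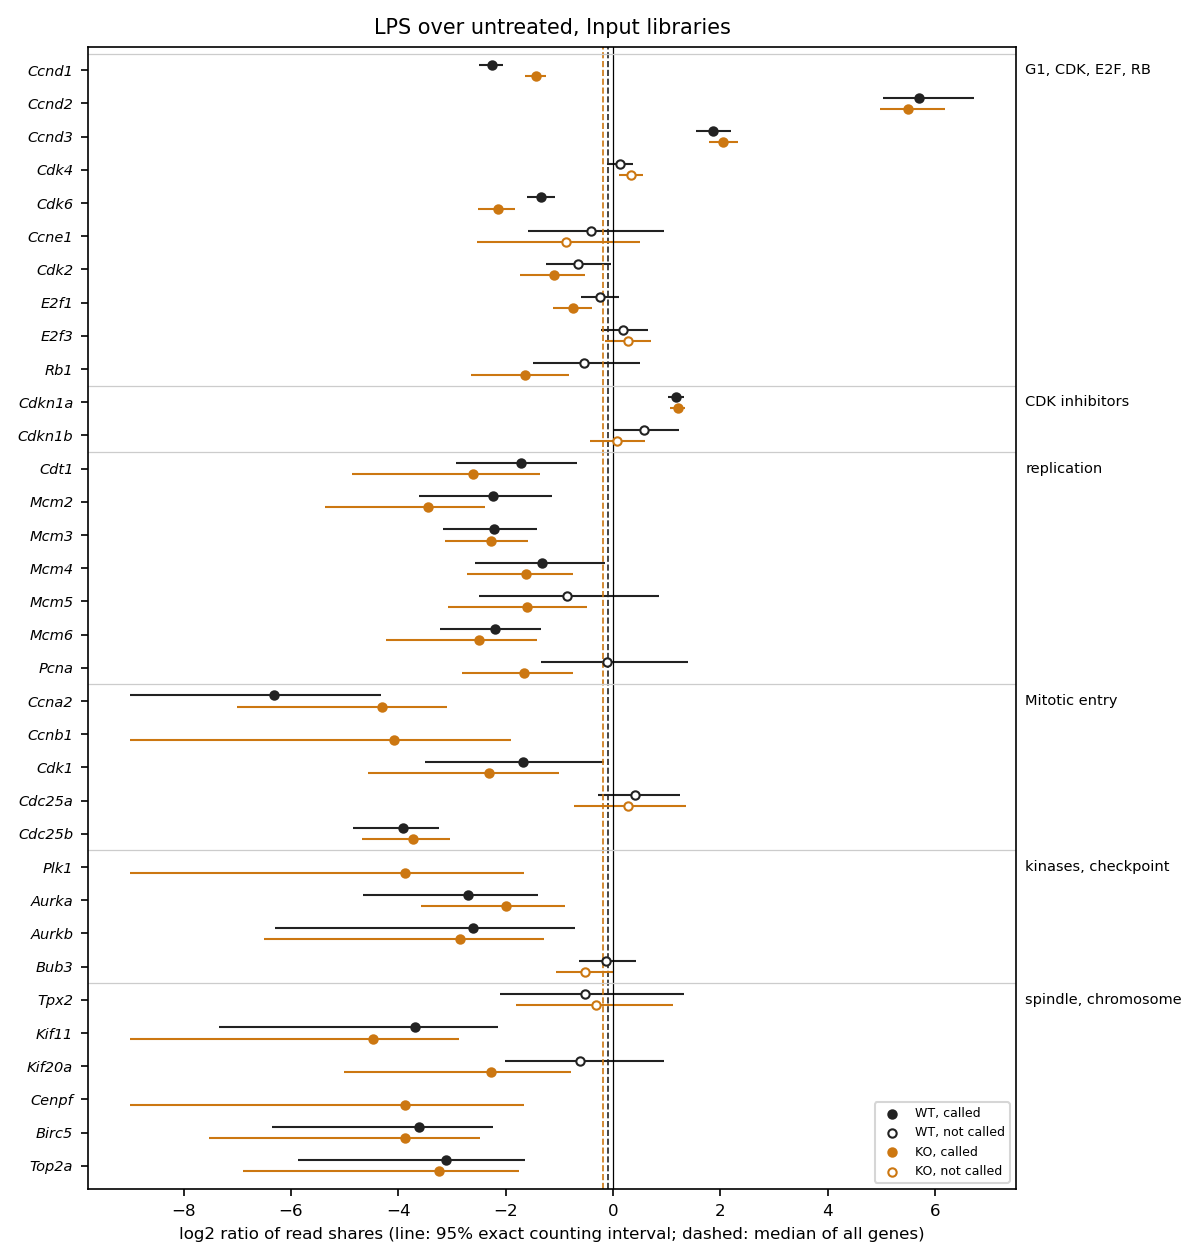
Log2 ratio of 3′-UTR read shares, LPS over untreated Input (x axis), for each cell cycle gene tested (y axis, grouped by role), WT in black and KO in orange. Filled points were called, lines are 95% exact counting intervals ended at -9 and dashed lines mark the median of all genes; the replication and mitotic points lie mostly left of both medians, and Ccnd2, Ccnd3 and Cdkn1a lie to the right.

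Between genotypes the Inputs differed little. In untreated cells 0 of 36 genes were higher in WT and 1 was lower, Pcna with 8 and 35 reads, where 0.854% and 1.45% of all 7845 genes were called. After LPS 1 of 27 was higher and 1 was lower, against 1.46% of 8151 genes in each direction. Cdk6 was higher in WT, with 222 and 88 reads, a log2 ratio of 0.99 [0.64, 1.37]. Ccnd1 was lower in WT, with 229 and 314 reads, a log2 ratio of -0.79 [-1.04, -0.54]. The LPS changes of both genes therefore differed between the Inputs of the genotypes, Ccnd1 by -0.83 [-1.12, -0.54] and Cdk6 by 0.81 [0.39, 1.24] on the log2 scale, WT minus KO.

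In the RIPs, as in the Inputs, more cell cycle genes fell than rose after LPS. In the WT RIP 4 of 39 rose and 24 fell, against 13.8% and 22.0% of all 8901 genes, and in the KO RIP 3 of 29 rose and 17 fell, against 12.2% and 16.8% of 7227. Ccnd2 went from 22 to 1338 reads in the WT RIP and from 9 to 865 in the KO RIP, Ccnd3 from 93 to 572 and from 19 to 182, and Cdkn1a from 513 to 1800 and from 139 to 791. Cdkn1b was the fourth gene that rose in WT, from 326 to 787 reads (log2 ratio 0.69 [0.50, 0.88]), and the KO value, from 99 to 250 reads, was 0.43 [0.10, 0.79]. Cdc25b fell from 77 to 2 reads in the WT RIP and Kif11 from 87 to 2, log2 ratios of -5.28 and -5.46. Fbxo5 fell from 12 to 2 reads in the WT RIP, and Mki67, with 5 then 12 reads in WT and 7 then 1 in KO, was not called in either.

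Ccna2 fell from 85 to 9 reads in the WT RIP and from 20 to 7 in the KO RIP, Ccnb1 from 19 to 2 and from 10 to 0, and Cdk1 from 26 to 14 and from 22 to 6. Top2a fell from 37 to 4 reads in WT and from 13 to 2 in KO. Aurka fell in the WT RIP, from 9 reads to 1, and had 3 then 1 in KO. Ccnb1, Top2a and Aurka thus had at most 4 reads in each RIP after LPS. Ccnb2 had 7 then 1 reads in WT and 1 then 2 in KO, and Fbxo5 had 3 then 0 in KO. Among the G1 genes, Cdk4 had 195 then 243 reads in WT and 41 then 74 in KO, and Rb1 had 84 then 81 and 20 then 17, with no call for either.

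RIP over Input asks which mRNAs were over-represented in the immunoprecipitate, and the KO pair, which lacks the target, is its background. In untreated WT cells 10 of 39 genes were higher in the RIP and 7 were lower, against 23.5% and 21.3% of all 8359 genes. In untreated KO cells 7 of 39 were higher and 6 lower, against 14.0% and 8.99% of 7708. Apart from Kif23, which had too few KO reads to test, the 4 genes with the largest ratios in WT were called higher in KO as well. Mad2l1 had 3 Input and 132 RIP reads in WT (log2 ratio 4.21 [3.04, 6.91]) and 3 and 63 in KO (5.50 [4.28, 8.21]). Cdkn1b had 32 and 326 reads in WT (2.47 [1.98, 3.08]) and 61 and 99 in KO (2.19 [1.73, 2.69]). The others were Ccne2, encoding cyclin E2, with 2 Input and 37 RIP reads in WT and 4 and 19 in KO, and Pcna. Ccnd3, Cdk4, E2f1 and Cdkn1a were called lower in both.

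The genes called higher in the untreated WT pair and not called in the KO pair were E2f3, Rb1, Mcm4, Kif11, Tpx2, an activator of Aurora A, and Kif23, a motor of the central spindle. E2f3 had 63 Input and 234 RIP reads in WT (log2 ratio 1.03 [0.64, 1.48]) and 82 and 34 in KO (0.26 [-0.39, 0.83]). Rb1 had 16 and 84 reads in WT (1.48 [0.77, 2.42]) and 43 and 20 in KO (0.44 [-0.44, 1.2]). Kif23 had 0 Input and 29 RIP reads in WT, at least 5.39-fold higher, and 1 and 3 in KO. These pairs of values do not by themselves test the difference, which follows below.

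After LPS 7 of 27 genes were higher in the WT RIP than in its Input and 7 were lower, against 25.1% and 28.0% of all 8767 genes. The higher ones were Ccnd1, Ccne2, E2f3, Rb1, Cdkn1b, Mad2l1 and Mki67. Ccnd1 had 229 Input and 538 RIP reads in WT (log2 ratio 0.84 [0.61, 1.07]) and 314 and 132 in KO (-0.46 [-0.77, -0.17]). In the KO pair 3 of 23 were higher (Cdkn1b, Pcna and Mad2l1) and 2 lower (Ccnd3 and Cdk4), against 15.6% and 11.8% of 7861. With library totals the KO splits became 5 higher and 11 lower (untreated) and 2 and 8 (LPS), and the WT split after LPS 10 and 3; TMM scaling gave 10 and 4 for the latter and median-of-ratios scaling 7 and 4.

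**Figure D4:**
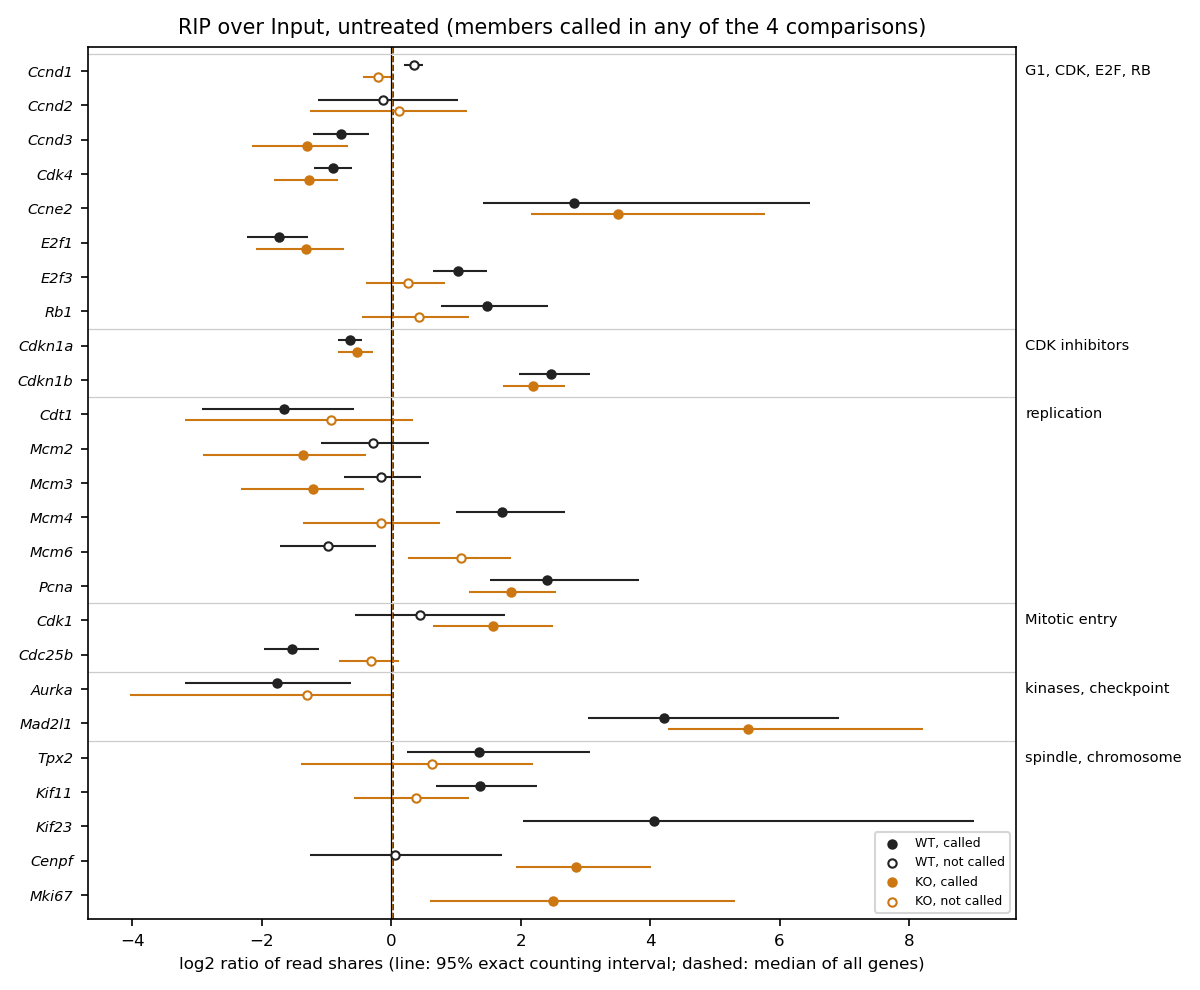
Log2 ratio of 3′-UTR read shares, RIP over Input in untreated cells (x axis), for the cell cycle genes called in any of the 4 RIP over Input comparisons and tested in untreated cells (y axis), WT in black and KO in orange. Filled points were called, lines are 95% exact counting intervals, that of Kif23 ended at 9, and dashed lines mark the median of all genes; Mad2l1, Cdkn1b, Ccne2 and Pcna lie to the right in both genotypes, E2f3, Rb1 and Mcm4 further right in WT.

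The ratio of the WT to the KO RIP was then corrected for the Inputs, over genes with at least 10 reads in all 4 libraries of a treatment. In untreated cells 4 of 20 genes were higher in WT and 2 lower, where 18.7% and 20.8% of 4471 genes passed the same limits. The higher ones were Ccnd1 (0.56 [0.30, 0.82] on the log2 scale), E2f3 (0.78 [0.08, 1.47]), Mcm3 (1.05 [0.04, 2.06]) and Mcm4 (1.87 [0.66, 3.08]). The lower ones were Mcm6 (-2.04 [-3.04, -1.04]) and Cdc25b (-1.23 [-1.83, -0.63]). For Rb1 the value was 1.04 [-0.02, 2.10], and for Cdkn1b, which was high in both RIPs, it was 0.27 [-0.42, 0.96].

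After LPS 2 of 14 genes were higher and 3 lower, against 17.5% and 24.6% of 5478. Ccnd1 had the highest corrected ratio, 1.29 [0.93, 1.66], with its RIP reads higher and its Input reads lower in WT, and E2f3 followed with 0.76 [0.26, 1.27]. Cdk6, which was higher in the WT RIP, had a corrected value of 0.31 [-0.30, 0.91], and its Input was higher in WT too. Lower were Ccnd2 (-0.72 [-0.89, -0.56]), E2f1 (-0.96 [-1.60, -0.31]) and Cdc25a (-1.40 [-2.42, -0.38]). Of the genes compared under both treatments, Ccnd1 and E2f3 were thus past the limits in the WT direction in both. They stayed there under each scaling tried. Each of these scalings moved all corrected ratios up, so none could have taken the 2 genes out, and this was no check on them. The splits of higher and lower genes in those scalings were 5 and 2 to 13 and 1 (untreated). After LPS they were 4 and 2 to 10 and 0. Mcm3 and Mcm4 could not be compared after LPS, with 9 and 4 KO RIP reads. The share of all genes past the limits under both treatments was not taken.

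The deposited tables also give, for each region, a prediction of CPE-mediated repression or activation from the arrangement of its motifs. Of the 48 regions 22 had a prediction (45.8%), against 31.8% of the regions of all genes. Repression without activation was predicted for 10 (20.8%, against 16.2% of all), among them Ccnd1, Rb1, Cdkn1b, Ccna2 and Ccnb1. Activation was predicted for 12, early and weak for Cdk2, Mcm4, Aurkb, Ttk, Mad2l1 and Fbxo5, early and strong for Cdt1, Mcm2 and Cdc20, and joined with repression for Cdkn2c, Kif11 and Bub1b. The other 26 regions had none, among them those of Ccnb2, Cdk1, Aurka, Cdk6, E2f3 and all genes that rose in the Inputs with LPS. A canonical CPE alone did not make a prediction: E2f3 had 4 and no prediction.

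In untreated cells, the median WT over KO RIP log2 ratio was 0.19 for the 18 genes tested that had a prediction and -0.48 for the 22 without. Over all genes tested these medians were 0.19 and -0.31. After LPS the medians were 0.30 for 9 genes and -0.22 for 16, and 0.29 and -0.33 over all genes. Of the 7 genes called lower in the untreated WT RIP, 6 had no prediction, as did 635 of the 752 of all genes called lower there, and Birc5, an inhibitor of apoptosis that also acts at the mitotic spindle, had repression only. Cdk6 and E2f3, both higher in the WT RIP after LPS, had no prediction, and Ccnd1 had repression only.

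By class, the medians in untreated cells were 0.18 for the 9 genes with repression only (0.17 over all genes of that class) and 0.25 for the 9 with activation (0.23). After LPS they were 0.04 for 6 genes with repression only (0.30 over all genes of that class) and 0.71 for 3 with activation (0.29). In the Inputs, 12 of the 14 genes tested that had a prediction fell with LPS in KO and 8 of 13 in WT, against 23.2% and 17.3% of all genes with a prediction. Without a prediction, 12 of 20 fell in KO and 7 of 18 in WT, against 18.1% and 16% of all such genes. Peaks called by the authors overlapped the regions of 5 of the 48 genes in the untreated WT RIP (E2f3, Cdkn1b, Mcm4, Pcna and Mad2l1; 10.4%, against 6.83% of all genes) and of 6 in the LPS WT RIP (Ccnd1, Cdk6, E2f3, Cdkn1b, Pcna and Mad2l1; 12.5%, against 15.4%). In the untreated KO RIP they overlapped 4 (Cdkn1b, Pcna, Cdk1 and Mad2l1; 8.33%, against 1.03% of all genes) and in the LPS KO RIP 1 (Cdkn1b; 2.08%, against 1.17%).

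**Figure D5:**
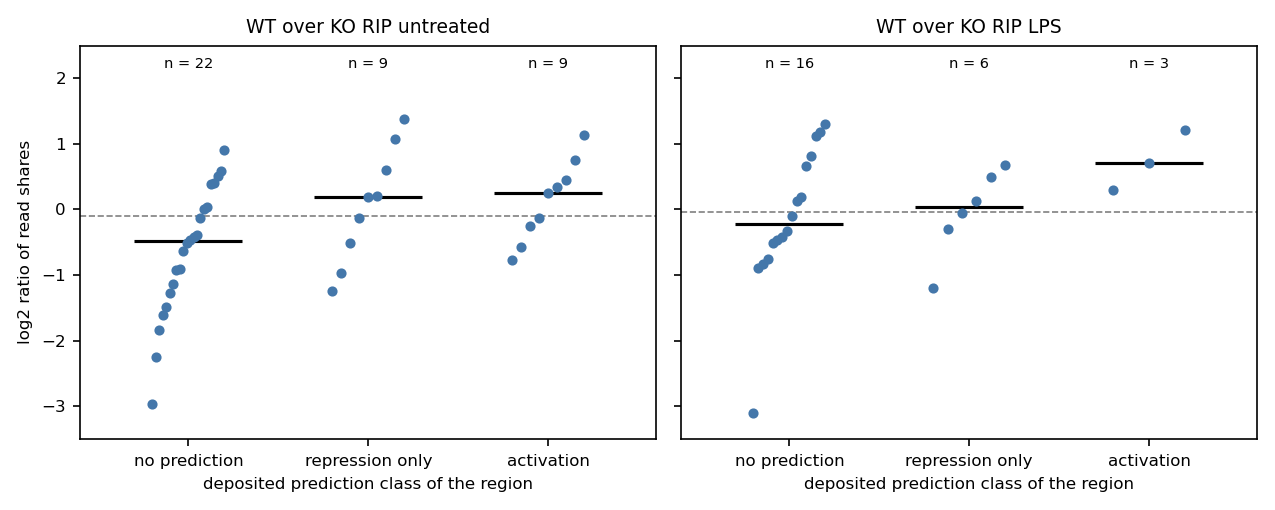
Log2 ratio of 3′-UTR read shares, WT over KO CPEB4 RIP (y axis), for the cell cycle genes tested, by the deposited prediction class of their region (x axis), untreated on the left and LPS on the right. Points are genes, black bars are class medians and the dashed line is the median of all genes; the medians are -0.48, 0.18 and 0.25 in untreated cells and -0.22, 0.04 and 0.71 after LPS, the last over 3 genes.

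Some of these regions share sequence or place with other genes, and the sources used here do not say that reads were counted by strand. Exons of a gene on the opposite strand covered 88.3% of the Ccne2 region (Ints8), 70.5% of that of Cdk4 (Tspan31), 39.5% of that of Ccnd3 (Bysl), 30.6% of that of Ccnd1 and 27.6% of that of Ccna2 (Exosc9), so reads of the pair cannot be told apart. For Kif20a the share was 100% and for Cdc20 85.5%. Copies elsewhere in the genome, at 95% identity or more, matched 100% of the Mki67 region, 87.5% of that of Mcm7, 73.8% of that of Ccnb1 and 72.7% of that of Pcna, and their reads are uncertain. Of the regions of Cdkn1b and Cdk4, as taken from Ensembl, 37.2% and 29.7% lay in RefSeq exons of the gene, and the Cdkn1b window shown lies near the far end of its region.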

How the data were processed

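RIP-seq reads of 8 libraries were analysed. Per the study's methods and the submitters' processing notes, the authors aligned reads to mm10 with Bowtie2 2.2.2 in local mode, removed duplicates, counted reads over Ensembl 3′-UTRs and called peaks with MACS 1.4.2. The deposited tables hold counts per region, RPKM, the score of the highest peak and predictions; the authors' fold changes and p-values of RIP over Input are there too and were not used. Of 31117 regions, 495 without a symbol (0.902% to 1.04% of reads) were left out. Deposited counts were tested as in the report (SciPy 1.17.1), with edgeR 4.0.16 and DESeq2 1.42.0 scalings as alternatives, and RPKM from the authors gave library totals. Scripts were tested on simulated data. The region, call rule and named genes (classic CPE targets, G1 regulators, called genes, largest LPS changes) follow stated rules, but members and lists were chosen with earlier results of these data known. Canonical CPEs and hexamers read from GRCm38 equalled the deposited counts in 48 of 48 regions.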

Additional observations from a re-analysis of the deposited data

Results flagged for a closer look

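In all, 6 results stood out because an effect differed between treatments or between genotypes, by an interval of the difference that covers counting error in single libraries. The ratio of the WT to the KO RIP was higher after LPS than before by 1.29 for Cdk6, 1.48 for Mad2l1 and 1.13 for Bub3 on the log2 scale. Mad2l1 and Bub3 were not called between the RIPs under either treatment. The LPS change of the Input differed between WT and KO by -0.83 for Ccnd1, 0.81 for Cdk6 and 0.50 for E2f1 (interval 0.02 to 0.99). These came from 16 genes compared, 2 higher and 1 lower. The share of all genes past the same limits was not taken, so this count has no background. The Input of Cdk6, with 222 WT and 88 KO reads after LPS, moved with its RIP ratio, and its part in that result was not tested.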

How the results depend on the processing

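Of 316 alternative values of counts and medians, 258 stayed within the limits of no change and 58 moved. A change of direction was not looked for among these. Of 266 values for single genes, 241 kept direction and side of the threshold, 17 lost the call, 7 gained it and 1 turned sign. The gene that turned was Ccnd2, WT over KO RIP after LPS, from -0.89 to 0.25 with library totals. Library totals also gave 14 higher and 1 lower genes between the untreated RIPs, 14 and 0 after LPS, 3 lower in WT RIP over Input after LPS, 11 and 8 lower in KO RIP over Input (untreated and LPS), 5 higher in the KO RIP with LPS, and input-corrected counts of 13 higher and 1 lower (untreated) and 10 and 0 (LPS). With TMM scaling the untreated RIPs had 4 higher genes and the LPS RIPs 5, WT RIP over Input after LPS had 4 lower, the KO RIP with LPS had 5 higher, and the input-corrected counts were 7 higher (untreated) and 5 higher and 1 lower (LPS). Median-of-ratios scaling gave 3, 4 (lower, WT RIP over Input, LPS), 5 (KO RIP with LPS) and 4 (input-corrected, LPS, higher). Adding 0.1 reads, the exact binomial test, Benjamini-Hochberg adjustment and taking any region of a gene each gave 2 higher genes between the untreated RIPs. With at least 50 reads in the pair there were 2 higher and 2 lower (untreated RIPs), 1 lower (LPS RIPs), 5 and 10 lower with LPS in the WT and KO Inputs, 0 lower between the untreated Inputs, 3 and 1 higher in KO RIP over Input, and 11 and 5 lower with LPS in the WT and KO RIPs. At least 20 reads in each library left 2 input-corrected higher genes in untreated cells.

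With edgeR's exact test at the preset variation, the RIPs had 0 higher and 1 lower gene untreated and 0 and 0 after LPS. With LPS, the WT Input had 1 higher and 8 lower, the KO Input 14 lower, the WT RIP 1 and 13 and the KO RIP 10 lower. Between the Inputs there were 0 lower untreated and 0 higher and 0 lower after LPS. RIP over Input had 5 higher and 0 lower in untreated WT, 2 and 0 in WT after LPS, 4 and 0 in untreated KO and 0 lower in KO after LPS. No paired analysis was possible because there was 1 library per group and the replicate numbers are lanes summed in one column, and for the same reason no replicate could be left out. In the Inputs from 1 to 14 of the 48 genes were at 0 reads, and for these only an upper limit can be given.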
